A study of Mus musculus with 12 samples.

Results

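The genes described here are the mouse *Zfp* zinc finger genes that lie outside the annotation shared by most KRAB zinc finger genes. They were the rows whose symbol starts with Zfp, whose pathway annotation lacks the KEGG term for herpes simplex virus 1 infection, and whose mean raw count over the 12 libraries was at least 20, with the mRNA decay factors of the *Zfp36* group left out. The table lists 16234 genes, and 380 of them have a symbol starting with Zfp. Of these, 200 carry the herpes term, 3 are decay factors and 28 of the other 177 fell below the count limit, which left 149 members. All 149 passed the filter on low counts and were tested. Just inside the limit were *Zfp326* (mean 21.5 counts), *Zfp385c* (22.9) and *Zfp174* (24.8), and just outside it were *Zfp827* (19.9), *Zfp516* (18.2) and *Zfp72* (17.4).

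RNA was sequenced from bone marrow-derived mast cells (BMMCs), which are mast cells grown from mouse marrow in IL-3 and stem cell factor for 4 to 8 weeks. The 6 groups of 2 libraries were *Elk4* wild type (WT), heterozygous (HZ) and knockout (KO) BMMCs, each unstimulated or stimulated through the IgE receptor with 0.5 µg/ml anti-DNP IgE overnight and 100 ng/ml DNP-HSA for 1 h. Donors were C57BL/6N mice of both sexes, 6 to 12 weeks of age, from a line with a conventional *Elk4* deletion, and littermates served as WT. ELK4 is an ETS family factor that works with SRF on immediate-early genes. The labels call the control cells untreated, and whether these carried IgE is not stated. What a replicate number stands for is not stated either, so p-values measure the spread between these libraries, which may be technical.

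C2H2 zinc finger proteins carry short loops in which cysteines and histidines hold a zinc ion, and rows of such loops read DNA bases. In the largest group a KRAB domain in front of the fingers recruits TRIM28 and silences the bound chromatin, often at transposons. The genes outside that group are a mixture: some bind promoters, some are subunits or cofactors of chromatin complexes, and others bind RNA, ribosomes or the mitotic spindle.

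Counts on genes totalled 29697958 to 35531667 per library. Reads on *Elk4* (1867 to 3238 per library) did not follow the labels, with a difference of only -0.19 on the log2 scale between unstimulated KO and WT (standard error 0.06, adjusted p = 0.00872), and which part of the gene is deleted was not analysed here. Reads outside a deleted part do not check the labels, and the study examined ELK4 protein in such cells by western blot. WT, HZ and KO are used here as the labels give them. All 13 mast cell markers were detected, with a summed level of 36246 to 48638 FPKM, while 3 basophil markers summed to 69.6 to 108 FPKM and 8 macrophage and monocyte markers to 5.93 to 14.2 FPKM. Neutrophil markers summed to at most 0.207 FPKM and lymphocyte markers to at most 0.0625 FPKM. A list of 9 activation genes including *Egr1* and *Fos* already differed among unstimulated cells, at 747 to 753 FPKM in WT, 144 to 153 in HZ and 268 to 274 in KO. Their part in the differences between genotypes described here was not tested.

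The label of the set held only in part. The longest reading frame of each gene's GENCODE transcripts was searched for a 17-residue pattern of the KRAB A box, and 22 of 149 members (14.8%) matched it, against 107 of the 157 annotated *Zfp* genes with a reading frame (68.2%). The members held a median of 7 matches to the C2H2 pattern, and the annotated genes held 12. The deposited table assigned 111 members to the zf-C2H2 family of transcription factors and 2 to the ZBTB family, and 36 to none. A pathway of any kind was given for only 2, *Zfp110* and *Zfp369*, whose proteins bind the p75 neurotrophin receptor.

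Promoter sequences were available for 120 of the 149 members, 150 promoters in all, from RefSeq on GRCm38.p6, each running from 250 bases before to 50 bases after a gene start. They were searched on both strands for an ETS-type motif, CCGGAAGT, because ELK4 is an ETS factor. Motifs of the AP-1, EGR and CREB types and the CArG box were searched too. None of the motifs holds another within its letters. CCGGAAGT stood in 17 of 150 member promoters (11.3%), in 8.05% of the 12526 promoters of tested genes and in 3.89% of all 32851 promoters. TGANTCA, the AP-1 type, stood in 4 member promoters (2.67%; 5.07% of promoters of tested genes and 7.81% of all). GCGNGGGCG, the EGR type, stood in 11 (7.33%; 10.2% and 5.55%). TGACGTCA, the CREB type, stood in 3 (2%; 2.99% and 1.79%), and the CArG box, to which SRF binds, in 1 (0.667%; 1.24% and 1.63%). These matches are descriptions of the letters and not evidence of binding.

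The promoters printed here belong to members the results turn on, and were chosen after their values were seen. The first 3 belong to members that fell with stimulation in every genotype and hold CCGGAAGT, and the next to one that also fell in every genotype, with TGANTCA. The 15 members that fell in every genotype have 17 promoters. Of these, 3 hold CCGGAAGT, 1 holds TGANTCA and 0 hold any of the other motifs. The last 2 belong to a member that rose with stimulation and to one that differed between genotypes, and held none of the motifs. Capitals mark a motif match on either strand.
Zfp59, chr7:27838334-27838633, plus strand: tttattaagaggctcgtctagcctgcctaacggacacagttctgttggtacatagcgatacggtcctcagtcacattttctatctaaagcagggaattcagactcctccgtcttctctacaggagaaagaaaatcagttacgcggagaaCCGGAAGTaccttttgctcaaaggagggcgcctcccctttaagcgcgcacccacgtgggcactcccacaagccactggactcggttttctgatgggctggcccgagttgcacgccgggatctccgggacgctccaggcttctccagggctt
Zfp606, chr7:12478055-12478354, plus strand: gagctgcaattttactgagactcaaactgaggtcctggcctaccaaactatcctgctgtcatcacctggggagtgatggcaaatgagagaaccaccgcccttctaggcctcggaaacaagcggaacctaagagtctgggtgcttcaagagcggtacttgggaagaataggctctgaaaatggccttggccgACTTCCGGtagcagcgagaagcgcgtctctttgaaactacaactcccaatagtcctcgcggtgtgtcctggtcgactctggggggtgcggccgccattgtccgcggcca
Zfp759, chr13:67127978-67128277, plus strand: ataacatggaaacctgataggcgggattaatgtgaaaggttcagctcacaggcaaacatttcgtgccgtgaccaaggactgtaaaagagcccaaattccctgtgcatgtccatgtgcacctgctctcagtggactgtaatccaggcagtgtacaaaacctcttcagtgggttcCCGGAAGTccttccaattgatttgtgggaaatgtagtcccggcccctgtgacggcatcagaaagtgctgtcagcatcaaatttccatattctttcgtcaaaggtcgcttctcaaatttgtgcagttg
Zfp329, chr7:12818811-12819110, minus strand: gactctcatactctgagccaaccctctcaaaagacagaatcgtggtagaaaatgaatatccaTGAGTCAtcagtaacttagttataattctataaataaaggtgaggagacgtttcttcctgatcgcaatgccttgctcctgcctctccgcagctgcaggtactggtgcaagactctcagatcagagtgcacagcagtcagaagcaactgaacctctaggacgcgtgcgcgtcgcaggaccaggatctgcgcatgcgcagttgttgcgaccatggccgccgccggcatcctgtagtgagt
Zfp281, chr1:136624651-136624950, plus strand: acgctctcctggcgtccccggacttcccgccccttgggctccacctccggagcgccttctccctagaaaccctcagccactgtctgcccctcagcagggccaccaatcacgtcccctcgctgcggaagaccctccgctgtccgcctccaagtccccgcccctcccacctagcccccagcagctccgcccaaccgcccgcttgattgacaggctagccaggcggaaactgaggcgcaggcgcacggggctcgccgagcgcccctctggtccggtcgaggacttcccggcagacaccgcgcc
Zfp503, chr14:21989552-21989851, minus strand: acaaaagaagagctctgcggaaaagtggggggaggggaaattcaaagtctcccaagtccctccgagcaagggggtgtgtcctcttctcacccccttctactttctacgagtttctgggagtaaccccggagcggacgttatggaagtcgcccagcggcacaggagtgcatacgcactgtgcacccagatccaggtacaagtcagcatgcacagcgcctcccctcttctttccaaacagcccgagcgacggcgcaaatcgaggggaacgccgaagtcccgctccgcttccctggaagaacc
The ETS-type match began 101 bases before the start of *Zfp59* and 77 before that of *Zfp759*, and it lay on the opposite strand 59 bases before that of *Zfp606*. The TGANTCA match of *Zfp329* began 188 bases before its start. No promoter was held in the table for *Zfp703*.

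The levels of the members ranged widely. Their mean FPKM over the 12 libraries, a level scaled by gene length and library total, ran from 0.113 to 86.6 with a median of 3.90, between the 1.22 of annotated *Zfp* genes and the 7.03 of all genes tested. The highest level was that of *Zfp207* at 86.6 FPKM, whose protein brings BUB3 to the spindle. *Zfp91*, a ubiquitin ligase of non-canonical NF-κB signalling, had 45.1 FPKM, and *Zfp622*, a factor of ribosomal large subunit maturation, had 33.9. *Zfp703*, a corepressor of the NET family, and *Zfp106*, an RNA-binding protein, each had 27.8. The other members of the top 10 were *Zfp706*, *Zfp330*, *Zfp598*, *Zfp422* and *Zfp131*, at 17.5 to 22.3 FPKM.

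A smaller share of counts fell on the members after stimulation. They took 0.473% to 0.514% of all counts in the 6 unstimulated libraries and 0.361% to 0.369% in the 6 stimulated ones, without overlap. In WT BMMCs, 18 of 149 members fell at least 2-fold (12.1%; 3.06% of all genes tested) and 2 rose (1.34%; 3.71%), with edgeR's quasi-likelihood test giving each an adjusted p under 0.05. The adjusted p alone was passed by 96 lower members (64.4%; 22.9% of all genes) and 7 higher ones (4.70%; 22.4%). The median log2 fold change was -0.38 over the members, -0.01 over all genes and -0.92 over the annotated *Zfp* genes, so the members' median lay between those of the other sets in the plot of WT responses. The comparison rests on the TMM scaling. With library totals instead, the median of all genes was itself -0.32 in WT and that of the members was -0.69. With these totals 46 members fell and 1 rose, and the shares of all genes above do not apply to those counts. Fewer cells of a type and less RNA per cell cannot be told apart in these libraries.

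**Figure D1:**
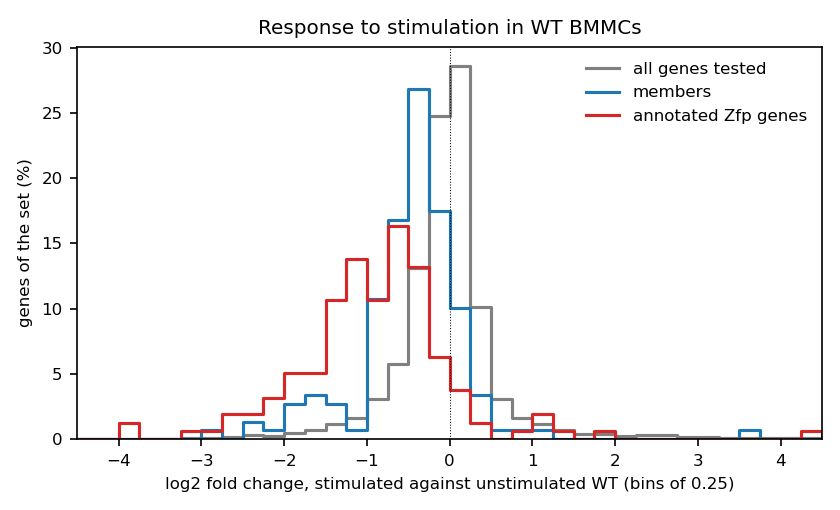
Share of genes (y axis, percent of each set) by log2 fold change of stimulated against unstimulated WT BMMCs (x axis, bins of 0.25) for all 12208 genes tested, the 149 members and the 159 annotated Zfp genes, drawn from -4.5 to 4.5 with the few genes beyond left out. The members (median -0.38) lie left of all genes (median -0.01) and right of the annotated genes (median -0.92).

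The same direction was measured in the other genotypes, which do not share libraries with WT in this comparison. In HZ cells 29 members fell (19.5%; 7.28% of all genes) and 5 rose (3.36%; 7.02%), with a median log2 fold change of -0.54. In KO cells 21 fell (14.1%; 2.88%) and 2 rose (1.34%; 3.73%), with a median of -0.33. By the adjusted p alone, 96 fell and 16 rose in HZ (64.4% and 10.7%; 31.6% and 32.9% of all genes), and 84 fell and 11 rose in KO (56.4% and 7.38%; 20.5% and 20.4%). Library totals gave 43 lower and 2 higher in HZ, and 29 lower and 1 higher in KO. The shares of all genes printed here are those under TMM scaling and do not apply to these counts. The sign was negative in all 3 genotypes for 101 members, positive in all 3 for 15 and mixed for 33. No share of all genes is given for these signs, so they describe the members only. Calls in all 3 genotypes were made for 15 members that fell (10.1%; 1.57% of all genes and 29.6% of annotated *Zfp* genes) and for 2 that rose (1.34%; 2.59% and 2.52%).

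The 2 members that rose in every genotype were *Zfp703* and *Zfp281*. *Zfp703*, a corepressor with no regular C2H2 match in its reading frame, had 17.9 and 16.5 CPM (counts scaled to a common library size by TMM) in unstimulated WT and 202 and 215 CPM in stimulated WT. It went from 15.7 and 14.5 to 178 and 175 CPM in HZ, and from 14.9 and 16.0 to 168 and 161 CPM in KO. Stimulated and unstimulated libraries did not overlap, and the rise was 12.1-fold in WT, or 3.60 on the log2 scale (adjusted p = 3.05e-43, standard error 0.06). Its log2 response was 3.55 in HZ and 3.42 in KO, and neither difference from WT passed in the interaction test (adjusted p = 0.688 and 0.206). The stimulated level of *Zfp703* was lower than in WT by the adjusted p alone, with log2 fold changes of -0.24 in HZ and -0.34 in KO. Unstimulated, the values were -0.19 in HZ, which also passed, and -0.16 in KO, which did not.

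*Zfp281*, a factor of GC-rich promoters known from embryonic stem cells, had 26.3 and 28.2 CPM in unstimulated and 64.0 and 59.4 CPM in stimulated WT. Its levels went from 25.7 and 24.8 to 53.6 and 54.8 CPM in HZ and from 30.3 and 32.6 to 73.2 and 75.4 CPM in KO. All 6 stimulated libraries lay above all 6 unstimulated ones, with log2 fold changes of 1.18, 1.10 and 1.24 in WT, HZ and KO (standard error 0.07 in each). With library totals, or with limma on FPKM, the WT value no longer reached 2-fold.

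Among the members that fell in every genotype, *Zfp319* had the highest counts. It went from 24.9 and 23.1 to 7.91 and 7.49 CPM in WT, from 27.2 and 32.1 to 6.40 and 5.78 in HZ and from 29.5 and 25.2 to 7.12 and 7.16 in KO. The 6 stimulated libraries lay far below the 6 unstimulated ones, and the fall in WT was 3.12-fold, or -1.64 on the log2 scale (adjusted p = 6.07e-17, standard error 0.11). In HZ the fall was larger than in WT, by 0.64 on the log2 scale (adjusted p = 0.00168).

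*Zfp553* went from 7.42 and 7.75 to 1.85 and 2.08 CPM in WT, a log2 fold change of -1.95 (standard error 0.19). It went from 13.2 and 17.3 to 2.93 and 2.47 CPM in HZ and from 12.6 and 10.4 to 1.83 and 1.81 in KO. Its unstimulated level was 2-fold higher in HZ than in WT (log2 fold change 1.00, adjusted p = 2.98e-07), while the 3 stimulated groups lay between 1.81 and 2.93 CPM. *Zfp322a*, which is active in embryonic stem cells, went from 13.2 and 12.8 to 3.80 and 3.42 CPM in WT (log2 fold change -1.84, standard error 0.16), and its falls were -2.08 in HZ and -1.74 in KO. For both genes the stimulated libraries of all genotypes lay below every unstimulated library.

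*Zfp296* had low counts and scattered values, from 2.05 and 2.74 to 0.741 and 0.235 CPM in WT, a log2 fold change of -2.29 (standard error 0.43). *Zfp329* fell from 16.3 and 17.6 to 5.45 and 5.98 CPM in WT (log2 fold change -1.57, standard error 0.13). *Zfp759* fell from 2.63 and 2.03 to 0.236 and 0.974 CPM (log2 fold change -1.94, standard error 0.43). These 3 passed in every genotype, and the smallest of their falls in HZ and KO was -1.06, for *Zfp296* in KO.

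*Zfp59*, *Zfp429*, *Zfp955a* and *Zfp955b* also fell in all 3 genotypes, but 25.3% to 52.4% of the 50-base words of their transcripts occur in other genes' transcripts, so their counts are uncertain. *Zfp955b* went from 10.4 and 11.8 to 3.10 and 3.36 CPM in WT (log2 fold change -1.78), *Zfp59* from 4.29 and 3.4 to 0.707 and 1.04 CPM (-2.13) and *Zfp429* from 3.17 and 1.97 to 1.01 and 0.739 CPM (-1.55). The remaining members with a fall in all 3 genotypes were *Zfp280b*, *Zfp606*, *Zfp629*, *Zfp738*, *Zfp784* and *Zfp955a*, with WT log2 fold changes of -1.15 to -1.52. *Zfp3* passed in WT alone, from 2.44 and 1.31 to 0.337 and 0.403 CPM (log2 fold change -2.33), and its response in HZ was less negative by 1.73 on the log2 scale (adjusted p = 0.045), with a difference of 1.38 in KO (adjusted p = 0.241).

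**Figure D2:**
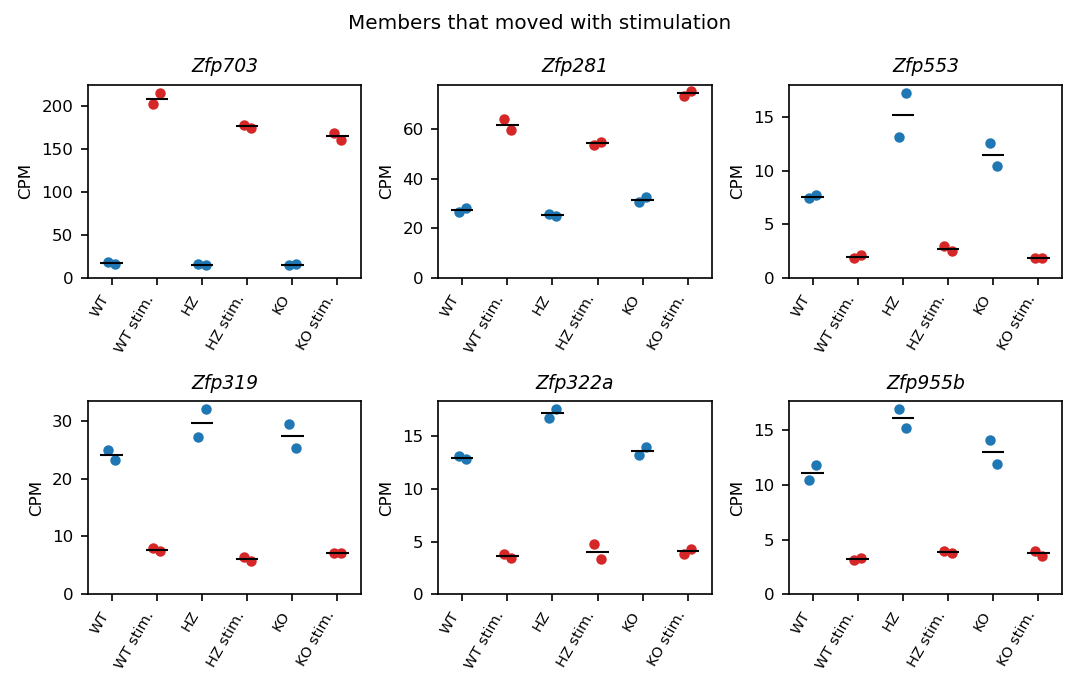
CPM (y axis, from 0) of 6 members in each of the 12 libraries, by genotype and treatment (x axis), with blue points for unstimulated and red for stimulated libraries and a black line at the mean of 2. Zfp703 and Zfp281 rise in every genotype (12.1-fold and 2.26-fold in WT), and the other 4 fall.

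**Figure D3:**
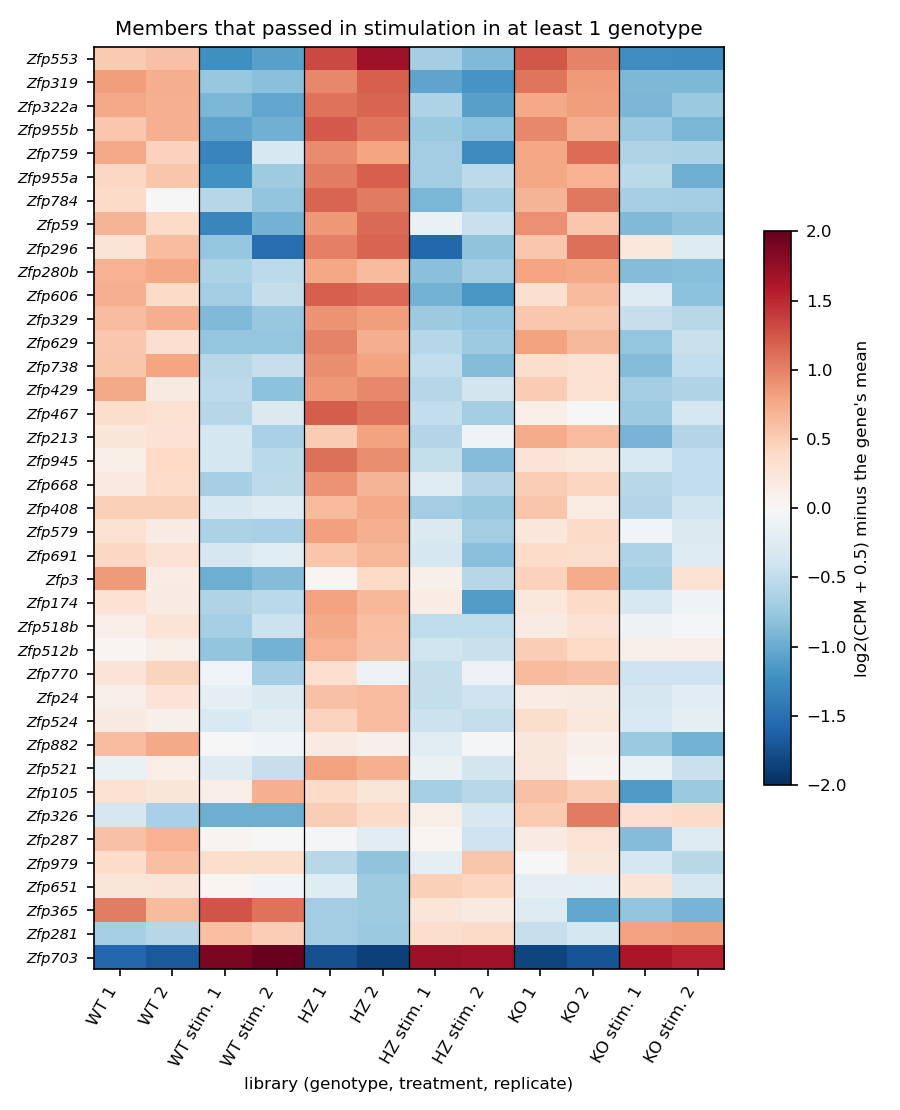
Heatmap of the 39 members that passed in stimulation in at least 1 genotype (rows) over the 12 libraries (columns), coloured by log2(CPM + 0.5) minus the gene's mean, from blue (lower) to red (higher). Most rows are red in unstimulated and blue in stimulated libraries, and several are darkest red in unstimulated HZ.

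The responses were also read by role lists, which were small and were not tested as sets. The 9 haematopoietic and immune cofactors were *Zfpm1*, *Zfp91*, *Zfp217*, *Zfp219*, *Zfp281*, *Zfp335*, *Zfp467*, *Zfp521* and *Zfp710*. In each genotype 1 of the 9 rose at least 2-fold (11.1%; 3.71%, 7.02% and 3.73% of all genes in WT, HZ and KO). It was *Zfp281*, listed here though it is a promoter-binding factor best known from embryonic stem cells. None fell at least 2-fold in WT or KO and 2 fell in HZ (22.2%; 7.28% of all genes), and the list's medians were -0.37, -0.30 and -0.21 in WT, HZ and KO. The 2 that fell in HZ were *Zfp467*, from 17.8 and 16.2 to 5.09 and 4.36 CPM, and *Zfp521*, a factor of immature haematopoietic cells, from 49.8 and 46.4 to 25.7 and 21.9 CPM. Their unstimulated levels were higher in HZ than in WT, by 0.86 and 0.76 on the log2 scale. Stimulated HZ and WT did not differ by the adjusted p (-0.18 for *Zfp467* and 0.12 for *Zfp521*). Both also fell in WT by the adjusted p alone, with log2 fold changes of -0.81 and -0.37. *Zfpm1*, which encodes the GATA cofactor FOG1, had a log2 fold change of 0.14 in WT and -0.30 in HZ, and the latter passed by the adjusted p alone.

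Of 13 members listed as promoter-binding regulators, *Zfp703*, a corepressor that the list also holds, rose in each genotype. *Zfp105* fell in HZ and KO. Of all genes, 3.71%, 7.02% and 3.73% rose in WT, HZ and KO, and 7.28% and 2.88% fell in HZ and KO. The list's medians were -0.29 in WT, -0.44 in HZ and -0.24 in KO. Of 17 proteins listed as subunits or partners of chromatin complexes, 0 passed the 2-fold limit in WT or KO. In HZ 2 fell, *Zfp512b* and *Zfp518b* (7.28% of all genes fell in HZ). Their unstimulated levels were higher in HZ than in WT, by 0.59 and 0.48 on the log2 scale. By the adjusted p alone, 11 of the 17 fell in WT (64.7%, close to the 64.4% of all members, with 22.9% of all genes), with the largest log2 fold changes in *Zfp512b* (-0.97), *Zfp518b* (-0.78), *Zfp512* and *Zfp518a* (-0.76 each) and *Zfp687* (-0.69), whose protein works with ZMYND8. The median of the list was -0.35 in WT. The other 12 of these 17 were *Zfp276*, *Zfp280c*, *Zfp280d*, *Zfp292*, *Zfp318*, *Zfp407*, *Zfp451*, *Zfp592*, *Zfp608*, *Zfp609*, *Zfp644* and *Zfp653*. The list also named *Zfp462*, *Zfp532* and *Zfp827*, which were not among the members.

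The 12 RNA and ribosome factors had medians near 0, 0.03, 0.10 and 0.03 in WT, HZ and KO. *Zfp622* rose by the adjusted p alone from 79.1 and 77.7 to 133 and 137 CPM in WT, a log2 fold change of 0.78 (standard error 0.05), with 0.93 in HZ and 0.76 in KO. *Zfp598*, the ligase that marks collided ribosomes, had log2 fold changes of -0.10 in WT, 0.19 in HZ and 0.24 in KO. *Zfp830* fell in all 3 by the adjusted p alone (-0.74, -0.76 and -0.97). Of the 3 factors of the spindle, membrane and other sites, *Zfp207* had small falls of -0.18, -0.24 and -0.21. *Zfp365* rose at least 2-fold in HZ alone. Its log2 fold changes of 0.40 in WT and -0.52 in KO did not pass the adjusted p, and its levels are described with the genotypes.

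Their partners outside the family were read from a list of 23 genes, among them *Gata1*, *Chd4*, *Hdac1*, *Zmynd8*, *Trim28* and *Nfkb2*. Its median log2 fold change was 0.02 in WT, 0.19 in HZ and -0.02 in KO, and 0 of 23 fell at least 2-fold in any genotype. At least 2-fold rises were 0 of 23 in WT, 1 in HZ (4.35%; 7.02% of all genes) and 1 in KO (4.35%; 3.73%). *Top2a*, a topoisomerase of dividing cells, rose in HZ (1.13 on the log2 scale, adjusted p = 3.54e-30), with -0.32 in WT and -0.24 in KO. *Nfkb2*, the NF-κB subunit of the non-canonical pathway, rose past the limit in KO (1.07, adjusted p = 8.02e-22). In WT and HZ *Nfkb2* also rose, by 0.98 and 0.75, short of 2-fold. *Trim28*, the partner of KRAB domains, had a log2 fold change of 0.05 in WT (adjusted p = 0.296), 0.50 in HZ (adjusted p = 1.28e-16) and -0.02 in KO (adjusted p = 0.778).

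The size of the fall varied with level and with the number of fingers. All 18 members called lower in WT had a mean level of at most 5 FPKM, and none above it was called lower in HZ or KO either. The median WT log2 fold change was -0.65 in the 27 members of up to 1 FPKM, -0.75 in the 26 of 1 to 2, -0.51 in the 36 of 2 to 5, -0.25 in the 33 of 5 to 10 and -0.18 in the 27 above 10 FPKM. By C2H2 matches it was -0.15 in the 16 members with 0 or 1, -0.29 in the 39 with 2 to 5, -0.36 in the 46 with 6 to 10 and -0.58 in the 48 with 11 or more. Across the 149 members, which share libraries and depth, Spearman's rho with the WT log2 fold change was 0.50 for mean FPKM and -0.34 for C2H2 matches, and the 2 properties had a rho of -0.23 with each other. Genes are not independent replicates, so these are descriptions.

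The members with a KRAB A box match were part of that pattern. Of the 22, 6 fell at least 2-fold in WT (27.3%) with a median of -0.68, against 12 of the 127 without a match (9.45%) with a median of -0.35. In KO the numbers were 7 of 22 and 14 of 127, with medians of -0.64 and -0.30. In HZ they were 7 of 22 and 22 of 127, with medians of -0.70 and -0.49. Of all genes, 3.06%, 7.28% and 2.88% fell at least 2-fold in WT, HZ and KO. The difference between these subsets was not tested, and the subset with a match had the lower level (median 1.60 against 4.53 FPKM).

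**Figure D4:**
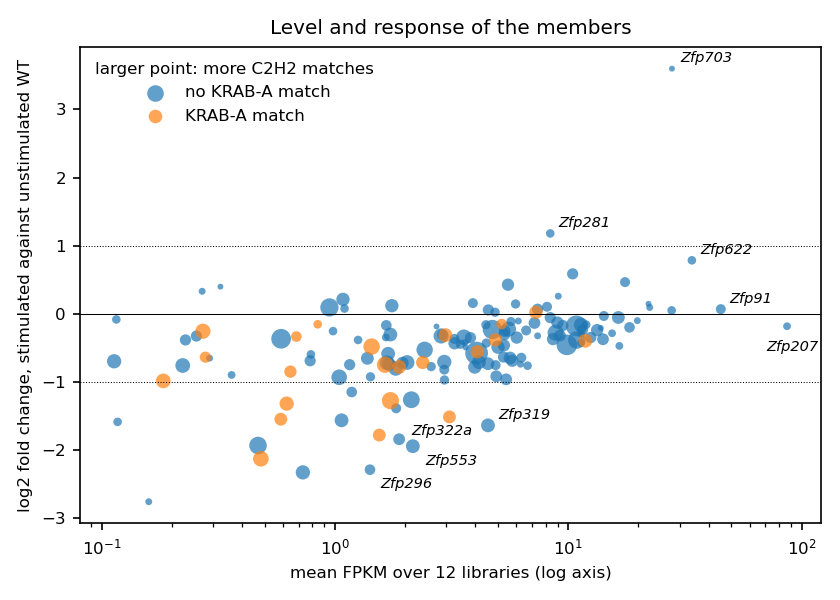
Log2 fold change of stimulated against unstimulated WT BMMCs (y axis) by mean FPKM over the 12 libraries (x axis, log scale) for the 149 members, with orange points for a KRAB A box match, blue for none, and larger points for more C2H2 matches. Points below the dotted line at a log2 fold change of -1 all lie under 5 FPKM, and Zfp703 and Zfp281 stand above the line at 1.

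The genotypes were then compared within each state, to see which members differ in cells labelled KO or HZ. In unstimulated cells, 2 members were higher in KO than in WT (1.34%; 2.64% of all genes) and 3 were lower (2.01%; 4.87%). In HZ against WT, 4 were higher (2.68%; 3.83%) and 4 lower (2.68%; 5.32%). In stimulated cells, with the study's limits of 1.5 and 0.66, 7 were higher in KO (4.70%; 5.44%) and 9 lower (6.04%; 7.22%), and 3 were higher in HZ (2.01%; 3.56%) and 6 lower (4.03%; 4.33%). By the adjusted p alone, 19 were higher and 30 lower in unstimulated KO (12.8% and 20.1%; 22.9% and 21.7% of all genes), and 38 and 20 in unstimulated HZ (25.5% and 13.4%; 25.4% and 26%). After stimulation they were 29 and 22 in KO (19.5% and 14.8%; 21.2% and 19.2%) and 19 and 21 in HZ (12.8% and 14.1%; 18.4% and 16.5%). All of these shares were near or below those of all genes. Single libraries moved some of these small counts: 5 were lower in unstimulated KO without WT 1 or KO 2, 2 were higher in unstimulated HZ without WT 2 and 7 lower without HZ 1, and after stimulation 4 were higher in KO without WT 2 and 5 in HZ without HZ 2. KO and HZ were compared with the same WT libraries, so their values are given side by side only.

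*Zfp503*, the NET family relative of *Zfp703*, was higher in both. Unstimulated WT libraries had 4.47 and 5.29 CPM, HZ libraries 22.1 and 19.1, and KO libraries 13.1 and 13.8. Stimulated WT libraries had 3.43 and 5.14 CPM, HZ libraries 10.7 and 10.9, and KO libraries 13.3 and 14.5. No WT library reached any HZ or KO library, and the log2 fold changes of KO against WT were 1.46 unstimulated (standard error 0.14, adjusted p = 5.59e-12) and 1.70 stimulated (standard error 0.15, adjusted p = 3.33e-13).

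*Zfp365*, whose protein is a centrosomal coiled-coil factor, was lower in both. In the unstimulated state WT libraries had 2.78 and 2.00 CPM, HZ libraries 0.489 and 0.485, and KO libraries 0.827 and 0.282. In the stimulated state the values were 3.37 and 2.92 CPM for WT, 1.40 and 1.32 for HZ, and 0.431 and 0.347 for KO. WT stood above the other genotypes in each state, with KO against WT log2 fold changes of -2.09 unstimulated and -3.0 stimulated (standard errors 0.43 and 0.47).

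*Zfp970* was also lower in both, at 17.7 and 20 CPM in unstimulated WT, 6.28 and 6 for HZ and 7.31 and 6.65 for KO (KO against WT -1.43, standard error 0.14), and -1.19 after stimulation. It shares 52.2% of its 50-base words with other genes and is uncertain. *Zfp2* had 1.78 and 3.4 CPM in unstimulated WT, 0.374 and 0.394 for HZ and 0.640 and 0.423 for KO (KO against WT -2.28, standard error 0.49). *Zfp326*, an RNA-binding factor of transcript elongation with few counts, had 11 and 6 counts in unstimulated WT, 34 and 29 for HZ and 38 and 59 for KO, and its 2 stimulated WT libraries held 1 count each.

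After stimulation, *Zfp105*, *Zfp385a* and *Zfp512b* also differed between KO and WT past the limits. *Zfp385a*, which binds double-stranded RNA and acts with p53, had 6.26 and 5.88 CPM in stimulated WT, 2.56 and 3.35 for HZ and 1.08 and 2.50 for KO (KO against WT -1.75, standard error 0.25). In unstimulated cells its KO against WT log2 fold change was -0.99 (adjusted p = 0.000363), just short of 2-fold. *Zfp934*, *Zfp971* and *Zfp979* were lower in KO (-0.70, -0.98 and -1.02) and *Zfp976* was higher (0.65), and 21% to 40.1% of their 50-base words are shared with other genes, so these are uncertain.

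**Figure D5:**
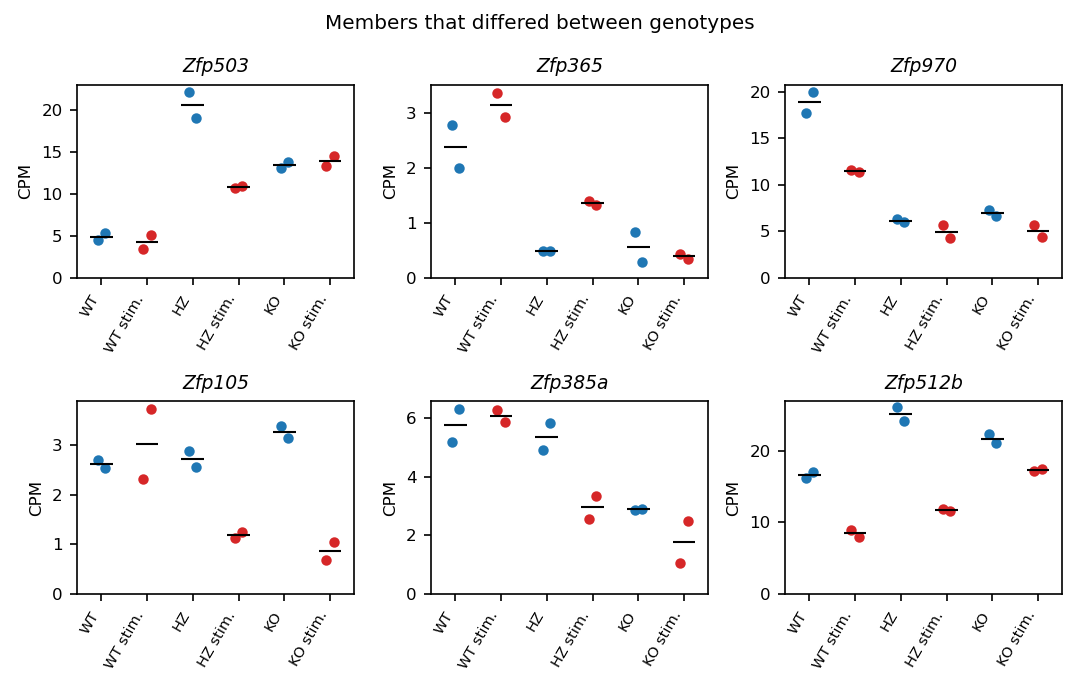
CPM (y axis, from 0) of 6 members in each of the 12 libraries, by genotype and treatment (x axis), with blue points for unstimulated and red for stimulated libraries and a black line at the mean of 2. Zfp503 is higher, and Zfp365 and Zfp970 lower, in every HZ and KO library than in the WT libraries of the same state, while Zfp105 is low only in stimulated HZ and KO.

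The response itself was compared between genotypes by the interaction term. In KO, 10 members had a more positive log2 response than in WT (6.71%; 5.44% of all genes) and 2 a more negative one (1.34%; 3.83%). In HZ, 16 were more positive (10.7%; 19.9%) and 28 more negative (18.8%; 18.6%). Without stimulated WT 2 the KO count of more positive members was 5, and without unstimulated WT 2 or KO 2 it was 6. The count of more negative members was 4 without stimulated KO 2 and 1 without unstimulated WT 2 or KO 2, or without stimulated WT 1 or KO 1. Unstimulated WT had the highest level of the activation genes given above, and unstimulated HZ the lowest.

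*Zfp105*, a member with 11 C2H2 matches, showed the largest KO difference. It had 2.69 and 2.54 CPM in unstimulated and 2.32 and 3.73 in stimulated WT, but went from 3.39 and 3.13 to 0.683 and 1.04 CPM in KO and from 2.88 and 2.55 to 1.13 and 1.25 in HZ. The WT states overlapped, whereas the KO and HZ states did not. The difference from WT was -2.12 on the log2 scale in KO (standard error 0.45, adjusted p = 0.000811) and -1.40 in HZ (adjusted p = 0.00845).

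*Zfp512b*, which binds the NuRD complex, fell less in KO. It went from 16.2 and 17.1 to 8.95 and 7.99 CPM in WT, from 22.3 and 21 to 17.1 and 17.4 in KO and from 26.0 and 24.1 to 11.9 and 11.5 in HZ. The states did not overlap within any genotype, and the KO difference was 0.64 (standard error 0.15, adjusted p = 0.00247), while the HZ difference was -0.13 (adjusted p = 0.558). *Zfp687* likewise went from 60.2 and 61.6 to 37.0 and 38.4 CPM in WT but from 68.4 and 68.1 to 52.4 and 54.2 in KO, a difference of 0.33 (standard error 0.08, adjusted p = 0.00553). Of the list of 17 chromatin complex proteins, 4 had a more positive response in KO (23.5%; 6.71% of all members and 5.44% of all genes), *Zfp292*, *Zfp512b*, *Zfp518b* and *Zfp687*, and 0 a more negative one (3.83% of all genes). In HZ the response of *Zfp518b* differed from WT the other way, by -0.44 (adjusted p = 0.0177). The HZ differences of *Zfp687* (-0.08) and *Zfp292* (0.07) did not pass the adjusted p. The list was drawn up with earlier results of these data known, and it was not tested as a set.

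The other differences were small. *Zfp236* went from 110 and 111 to 98.9 and 96.4 CPM in WT and from 121 and 114 to 125 and 124 in KO, a difference of 0.27 (adjusted p = 0.00235), and in HZ the difference was -0.55. *Zfp598* went from 71.1 and 66.9 to 64.0 and 64.5 CPM in WT and from 64.6 and 60.9 to 77.1 and 71.3 in KO, a difference of 0.34 (adjusted p = 0.0027), and *Zfp292* had a difference of 0.34 (adjusted p = 0.00584). The call of *Zfp598* was lost under 3 of 21 other settings and that of *Zfp292* under 6. *Zfp110*, one of the p75 neurotrophin receptor partners, went from 40.0 and 39.6 to 36.4 and 35.3 CPM in WT and from 39.6 and 43.4 to 27.0 and 32.2 in KO, a difference of -0.33 (adjusted p = 0.0441), which lost its call under 13 of 21 other settings.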

How the data were processed

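The authors deposited raw read counts per gene, without normalization, and FPKM values of the same 16234 genes, scaled by gene length and library total. The submitters' processing notes name fastp, HISAT2, HTSeq and build GRCm39; versions, annotation, strand setting and filters are not given in the sources used here. Without a strand setting, reads of antisense or overlapping genes cannot be told apart. Library totals were 29697958 to 35531667 counts.

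The counts entered edgeR 4.0.16 in R 4.3.3: filterByExpr kept 12208 genes, libraries were TMM-scaled, and a quasi-likelihood model of the 6 groups was fitted (6 residual and 38.9 prior degrees of freedom). Two-sided p-values got a Benjamini-Hochberg adjustment across every gene tested. Calls needed a 2-fold change with adjusted p below 0.05, or, between stimulated genotypes, a fold from 1.5 up or 0.66 down; response differences (interaction terms) needed the adjusted p alone. The biological coefficient of variation was 4.01%.

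Members and lists were chosen with earlier results of these data known. Named members were up to 10 per direction with the largest log2 fold change in stimulation in WT, unstimulated KO against WT and stimulated KO against WT, with no overlap between groups and 50 or more mean counts where higher. Further named members were up to 5 per direction by adjusted p in the KO response difference, the 10 highest by mean FPKM, members of the role lists and those called in all 3 genotypes. Others were named after their values were seen.

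C2H2 (cysteines 2 to 4 residues apart, 12 residues, histidines 3 to 5 apart) and KRAB A box patterns were searched in the longest reading frame of GENCODE M21 transcripts, whose 50-base words were compared between genes. Promoters came from RefSeq (GRCm38.p6), and no coordinates were converted. Scripts were tested on simulated data.

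Alternatives were DESeq2 1.42.0, its size factors, library totals, other filters and thresholds, only the groups compared, replicate blocks, limma 3.58.1 on log2(FPKM + 1) over genes averaging 0.5 FPKM or more, on log2(FPKM + 0.1) or with no filter, members of at least 100 mean counts, and leaving out each library. Members without a KRAB match and with under 10% shared words were added after seeing the data.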

Additional observations from a re-analysis of the deposited data

Results flagged for a closer look

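The responses that differed between genotypes, by edgeR's interaction term and its Benjamini-Hochberg adjusted p, are given as values. In KO, 10 members had a more positive and 2 a more negative log2 response than in WT, and in HZ 16 and 28. Of all genes, 5.44% and 3.83% did so in KO, and 19.9% and 18.6% in HZ. The KO differences of single members were -2.12 for *Zfp105*, -0.33 for *Zfp110*, 0.27 for *Zfp236*, 0.64 for *Zfp512b*, 0.34 for *Zfp598*, 0.33 for *Zfp687* and 0.34 for *Zfp292*. For HZ, the difference was 1.73 for *Zfp3*, whose unstimulated WT libraries differed from each other (2.44 and 1.31 CPM), and -0.64 for *Zfp319*. Groups of 2 libraries allow no test for a deviating library.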

How the results depend on the processing

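Over the 18 counts of members called and their alternatives, 262 values stayed within 1.5 times the count reported and 106 did not. Of the repeats for single named members, none turned its direction, 508 kept the call and 54 lost it. DESeq2's size factors and no filter on low counts moved no count. With DESeq2, the KO response difference had 1 more negative member, and so it had with library totals. Library totals also gave 1 rise and 46 falls in WT, 2 rises in HZ, 1 rise in KO, and 5 members higher in stimulated HZ. With at least 10 counts in every library, 1 member was higher in unstimulated KO. Samples of the same replicate number did not deviate together (correlations of their deviations -0.0297, 0.0342 and -0.0229 in WT, HZ and KO over 10441 genes). With 2 libraries per group, these values cannot tell whether the samples were paired. With a replicate block, alone or within genotype, or with only the groups compared, 4 members had a more negative KO response, and no other count moved by over 1.5 times.

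With no fold threshold, 7 rose and 96 fell in WT, against 16 and 96 in HZ and 11 and 84 for KO. In unstimulated cells 19 were then higher and 30 lower in KO, and 38 and 20 in HZ, and in stimulated cells 29 and 22 in KO and 19 and 21 in HZ. With a difference of at least 1.5-fold, the response differences fell to 2 and 1 in KO and 8 and 14 in HZ, and with an adjusted p below 0.01 to 5 and 1 in KO and 8 more positive in HZ.

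On log2(FPKM + 1), which understates the change of low genes, limma gave 1 rise in each genotype and 8, 18 and 10 falls in WT, HZ and KO, with or without a filter. Unstimulated KO had 0 higher and 1 lower (with edgeR, 2 and 3), and unstimulated HZ 1 and 1. Stimulated KO had 3 and 3 (2 and 4 with no filter) and stimulated HZ 1 and 1. The response difference had 5 and 1 in KO, and 18 more negative in HZ with no filter. On log2(FPKM + 0.1) there was 1 rise in each genotype and 29 falls in WT, 1 and 1 in unstimulated KO, 1 and 2 in unstimulated HZ, 3 higher in stimulated KO, 1 higher in stimulated HZ, and 5 and 1 in the KO response difference. Of members with at least 100 mean counts, which are fewer, 10 fell in WT, 2 rose in HZ and 13 fell in KO, and 1 and 1 differed in unstimulated KO, 2 and 1 in unstimulated HZ, 3 and 4 in stimulated KO and 1 and 3 in stimulated HZ, with 1 more negative KO response. Without the members with a KRAB match, 1 had a more negative KO response. With under 10% shared words, 2 were lower in unstimulated HZ and 5 in stimulated KO.

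Leaving out 1 library gave 17 to 19 falls in WT, 28 to 31 in HZ and 20 to 21 in KO. Members lower in unstimulated KO numbered 3 to 5 (5 without unstimulated WT 1 or KO 2). In unstimulated HZ, 2 to 3 were higher (2 without WT 2) and 4 to 7 lower (7 without HZ 1). In stimulated cells 4 to 6 were higher in KO (4 without WT 2) and 2 to 5 in HZ (5 without HZ 2). The KO response difference ranged from 5 to 10 more positive (6, 5 and 6 without unstimulated WT 2, stimulated WT 2 or unstimulated KO 2) and 1 to 4 more negative (4 without stimulated KO 2, 1 without unstimulated WT 2 or KO 2, or without stimulated WT 1 or KO 1). Where 1 library was left in a group, it was assumed to vary like the others. The causes of these changes were not tested. With 2 libraries per group, members of low counts had wide errors.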
